A study of Mus musculus with 8 samples.

Results

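The carbonic anhydrase genes described here are Car1, Car2, Car3, Car4, Car8, Car12 and Car13, found by their symbols as 7 of the 17353 genes in the deposited tables. Carbonic anhydrases are zinc enzymes that turn carbon dioxide and water into bicarbonate and a proton, and the reverse. In the colon they sit in surface colonocytes, where the bicarbonate and protons they supply are exchanged for luminal chloride and sodium, and salt and water are taken up with them. Car1, Car2, Car3 and Car13 act in the cytosol, Car4 is tied to the outer face of the plasma membrane by a lipid anchor, and Car12 spans the membrane with its catalytic domain outside the cell. Car8 belongs to the carbonic anhydrase-related proteins, which lack the residues needed for catalysis.

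The data are poly(A)-selected, stranded RNA-seq of colonic mucosa from 8 wild-type male C57BL/6J mice on day 7, with 2 animals in each of 4 groups and an enema of 0.2 ml in every group. The Kuiyangling group received this herbal preparation at 10 g/kg by enema and drank 3% dextran sulfate sodium (DSS), a polymer that damages the lining of the colon. The mesalazine group drank the same DSS and had an enema of mesalazine, an aminosalicylate, at 50 mg/kg. The DSS model group drank DSS with a saline enema, and the control group had the saline enema alone. DSS colitis is a chemical injury, and both treatments were present only on top of it, so neither was tested in mice without DSS. The p-values weigh a difference against a spread that was estimated for each gene from all 8 libraries together and drawn towards that of other genes. Groups whose 2 animals lay close together and groups whose animals lay apart were given the same spread.

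Libraries held 15560946 to 17843715 counts, with 15217 to 15689 genes detected, so that 3 counts correspond to 0.149 to 0.212 CPM (counts scaled to TMM-adjusted library sizes). All 12 markers of surface colonocytes were detected in every library, with a summed level of 19183 to 31080 CPM. Lypd8 was the largest part of that sum, averaging 14451 CPM in Kuiyangling, 14272 in mesalazine, 16897 in DSS model and 16060 in control mice. For the DSS model against control, 5 of the 12 markers were above 0 and 7 below. Control replicate 2 stood apart from the other 7 libraries: the summed level of 6 posterior Hox genes was 230 CPM there, against 2.05 to 38.4 CPM elsewhere, and that of 8 B cell markers was 56.3 CPM, against 1.44 to 5.83 CPM elsewhere. Hoxb13, a gene of the hindmost gut, was at 175 CPM in control replicate 2 and 19.9 CPM in control replicate 1. Mesalazine replicate 1 had the highest share of counts in ribosomal protein genes, 12.7% against 3.35 to 6.68% in the others. Spearman's correlation of gene length with the deviation of a library from the mean of the others differed between libraries. It was 0.47 and 0.29 in controls and -0.096 and -0.46 in DSS model mice. In mesalazine mice it was -0.56 and 0.30, and in Kuiyangling mice -0.025 and 0.41. The implied gene length was 1409 bases for Car1, 5661 for Car12 and 5722 for Car8. The summed level of 8 neutrophil markers was 9.28 and 7.01 CPM in Kuiyangling mice, 27.1 and 9.92 in mesalazine mice, 29.6 and 54.7 in DSS model mice, and 0.495 and 0.678 in controls. The part of these differences in the results was not tested.

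None of the 7 genes passed the test in any comparison (edgeR quasi-likelihood F test, Benjamini-Hochberg adjusted over the 13381 genes tested, called under 0.05), although all 7 had enough counts to enter it. Among all genes tested, 0.247% were called for the DSS model against control, 0.239% for Kuiyangling against control, 0.673% for mesalazine against control, 2.19% for the mean of the 3 DSS groups against control, and 0% in the other 3 comparisons. What the data give is a steep order of levels and a set of differences whose intervals are wide. Of the 49 estimates (7 genes in 7 comparisons), 12 had a 95% interval lying within a 2-fold change in either direction and 5 had an interval that excluded 0.

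Levels between genes were compared in FPKM, the deposited unit per gene length and library total. Car1 averaged 8040 ± 1301 FPKM in Kuiyangling mice, 7317 ± 1597 in mesalazine mice, 5741 ± 752 in DSS model mice and 4216 ± 2639 in controls (SD, n = 2 each). Averaged over the 8 libraries it ranked 3 among all 17353 genes, and it took 0.331 to 1.26% of all counts in a library. Car1 was above Car4 in 8 of 8 libraries.

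Car4 and Car2 formed the next tier. Car4 averaged 524 ± 16.4 FPKM in Kuiyangling mice, 449 ± 152 in mesalazine mice, 515 ± 43.5 in DSS model mice and 809 ± 587 in controls (SD, n = 2 each). Car2 averaged 501 ± 27.3 FPKM in Kuiyangling mice, 403 ± 241 in mesalazine mice, 456 ± 21.9 in DSS model mice and 534 ± 152 in controls (SD, n = 2 each). Car4 exceeded Car2 in 6 of 8 libraries, so their order did not hold beyond the spread between animals.

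Car12, Car13 and Car8 formed a lower tier and overlapped each other. Over the 8 libraries Car12 spanned 11.9 to 34.2 FPKM, Car13 15.1 to 29.9 FPKM and Car8 6.03 to 20.4 FPKM. Car2 was above Car12 in 8 of 8 libraries, by 16.8- to 35.3-fold. Car12 was above Car13 in 4 of 8, and Car13 was above Car8 in 6 of 8. Car3, the muscle and fat isoform, was last in 8 of 8 libraries at 0.307 to 3.32 FPKM.

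**Figure D1:**
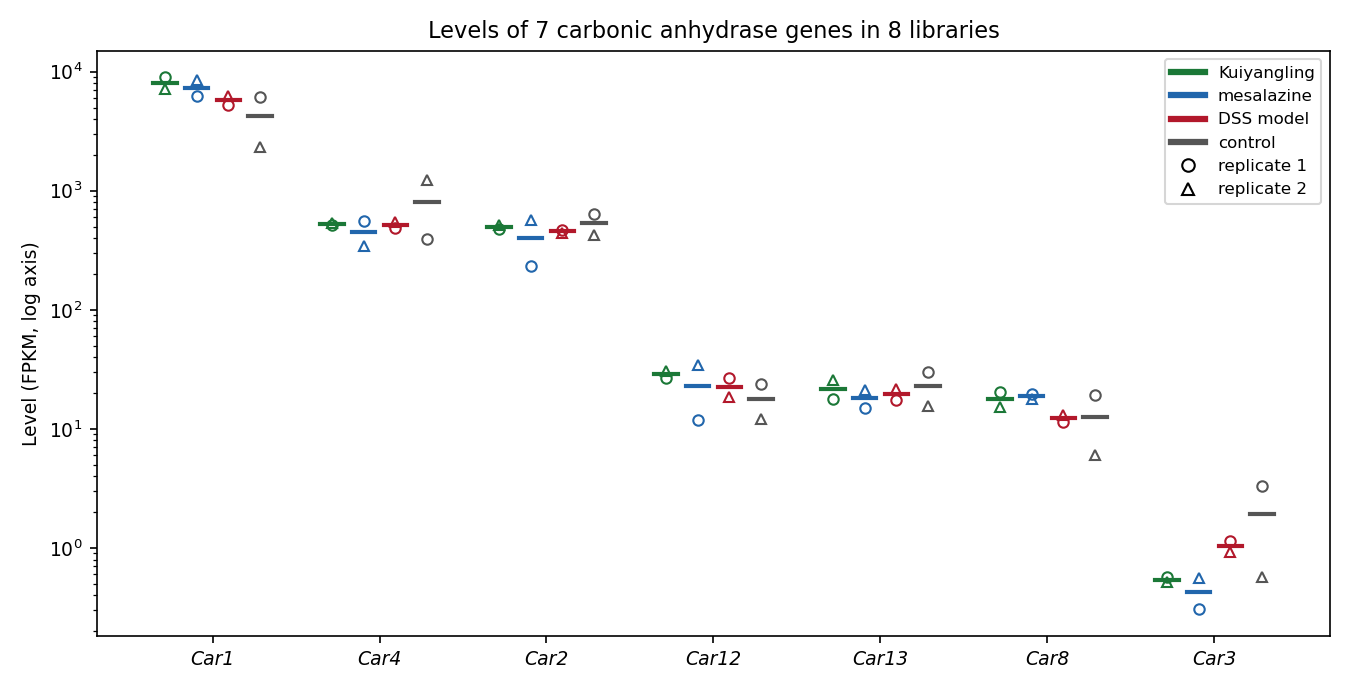
Level of each carbonic anhydrase gene (FPKM, log axis) in each library; circles are replicate 1, triangles replicate 2 and bars the mean of the 2 animals of a group, coloured by group. Car1 lies above all other members in every library and Car3 below them, while Car12, Car13 and Car8 overlap between 6.03 and 34.2 FPKM.

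Car1 encodes the abundant cytosolic carbonic anhydrase of colonocytes and of red cells. Its level was 12515 and 9178 CPM in Kuiyangling mice, 10462 and 11404 in mesalazine mice, 7815 and 9119 in DSS model mice, and 7576 and 3280 in controls. In CPM all 6 libraries of mice that drank DSS were above both controls, and control replicate 2 was far below the rest. In FPKM the separation did not hold, with DSS model replicate 1 at 5209 and control replicate 1 at 6082 FPKM. In DSS model mice against controls the estimate was a log2 change of 0.64 (SE 0.45, 95% interval -0.36 to 1.64, adjusted p = 0.485 by edgeR), which was 0.16 without control replicate 2 and 1.36 without control replicate 1. The mean of the 3 DSS groups against control gave 0.88 (SE 0.39, unadjusted p = 0.0447, adjusted p = 0.230 by edgeR), which became 0.40 without control replicate 2 and 1.60 without control replicate 1.

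Against the DSS model, Car1 was 0.36 higher on the log2 scale in Kuiyangling mice (95% interval -0.64 to 1.35, adjusted p = 0.996 by edgeR), with no overlap but a gap of only 9178 against 9119 CPM, and 0.086 without Kuiyangling replicate 1. For mesalazine mice against the DSS model the estimate was 0.37 (95% interval -0.63 to 1.37, adjusted p = 0.9999 by edgeR), without overlap in CPM but with overlap in FPKM. Both treatments share the DSS model libraries in these comparisons. Kuiyangling and mesalazine mice overlapped in Car1, with a difference of -0.01 (95% interval -1.01 to 0.98).

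Because Car1 and Car2 are also enzymes of red cells, the summed level of 8 red cell markers is given beside them. It was 55.3 and 43.3 CPM in Kuiyangling mice, 81.2 and 52.4 in mesalazine mice, 20.3 and 76.6 in DSS model mice, and 8.27 and 2.71 in controls. Of the 5 red cell markers that could be tested, 4 rose in the mean of the 3 DSS groups against control (adjusted p under 0.05, edgeR). That count was 0 without control replicate 2, and 1 without DSS model replicate 2, mesalazine replicate 1, Kuiyangling replicate 1 or Kuiyangling replicate 2. The part of red cells in the Car1 and Car2 differences was not tested. In bulk mucosa, fewer cells of a type and less RNA per cell cannot be told apart, which holds for every gene here.

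Car2 encodes the fast cytosolic isoform, found in most bicarbonate-moving epithelia. It stood at 929 and 926 CPM in Kuiyangling mice, 544 and 1069 in mesalazine mice, 977 and 885 in DSS model mice, and 1104 and 824 in controls. The groups overlapped in CPM, and the widest gap between animals was inside the mesalazine group, where replicate 1 was the lowest of all libraries. For the DSS model against control the log2 change was -0.05 with a 95% interval of -0.86 to 0.76, and for Kuiyangling against the DSS model it was -0.01 with an interval of -0.81 to 0.80. Both intervals lie within a 2-fold change, so a larger difference in Car2 falls outside them.

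Car13, another cytosolic isoform, varied least of the 7 genes between its highest and lowest library, by 1.71-fold. Its level was 40.4 and 53.9 CPM in Kuiyangling mice, 41.5 and 46.9 in mesalazine mice, 42.6 and 51.3 in DSS model mice, and 60.8 and 35.5 in controls. The 2 controls were the highest and the lowest of all 8 libraries, and each DSS group lay between them. The log2 change was -0.04 for the DSS model against control (95% interval -0.73 to 0.66) and 0.01 for Kuiyangling against the DSS model (95% interval -0.69 to 0.70). For mesalazine against the DSS model it was -0.09 (95% interval -0.78 to 0.61).

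Car3 encodes a cytosolic isoform of low activity that is abundant in skeletal muscle and fat. It was near the limit of detection, with 14 and 14 counts in Kuiyangling mice, 8 and 14 in mesalazine mice, 30 and 22 in DSS model mice, and 91 and 14 in controls. In CPM these were 0.867 and 0.727 in Kuiyangling mice, 0.566 and 0.817 in mesalazine mice, 1.89 and 1.46 in DSS model mice, and 4.51 and 0.863 in controls. Control replicate 1 was high and control replicate 2 lay with the treated mice. A count of 8 carries an exact Poisson 95% interval of 3.45 to 15.8 counts and a count of 14 one of 7.65 to 23.5 counts, which cover counting error only.

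The mean of the 3 DSS groups against control gave a log2 change of -1.47 for Car3 (SE 0.54, unadjusted p = 0.0221, adjusted p = 0.177 by edgeR). It was -2.20 without control replicate 2 and turned to 0.17 without control replicate 1. Kuiyangling against the DSS model gave -1.07 (95% interval -2.72 to 0.58, adjusted p = 0.996 by edgeR) and mesalazine against the DSS model -1.26 (95% interval -2.94 to 0.42, adjusted p = 0.963 by edgeR). All 4 treated libraries were below both DSS model libraries.

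Markers of the tissues where Car3 is abundant are given beside it. The summed level of the 8 skeletal muscle markers in the table was 12.3 and 6.70 CPM in Kuiyangling mice, 15.4 and 9.05 in mesalazine mice, 10.6 and 8.42 in DSS model mice, and 7.48 and 34.0 in controls. Most of it was Acta1, skeletal actin, at 32.9 CPM in control replicate 2 and 5.80 CPM in control replicate 1. The summed level of 7 adipocyte markers was 36.1 and 19.0 CPM in Kuiyangling mice, 38.5 and 22.0 in mesalazine mice, 22.7 and 25.9 in DSS model mice, and 29.0 and 22.6 in controls. Neither list was highest in control replicate 1, where Car3 was highest. Adipoq, the fat hormone adiponectin, was at 0.793 CPM in control replicate 1 and at 0 to 0.265 CPM in the other 7 libraries. Other markers of the list differed in direction. Fabp4 averaged 1.81 CPM in controls against 4.22 in Kuiyangling, 6.78 in mesalazine and 2.78 in DSS model mice. Cidec averaged 20.7 CPM in controls against 23.1, 22.8 and 19.7 CPM in the same order. Cfd averaged 2.20 CPM in controls against 0, 0.188 and 1.32 CPM. None of the 7 adipocyte markers was at 0 in control replicate 1, and 2 to 4 of them were at 0 in each other library; their part in the Car3 value was not tested.

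Car4, the lipid-anchored enzyme of the apical surface, serves the chloride and bicarbonate exchangers from outside the cell. Its level was 823 and 794 CPM in Kuiyangling mice, 1082 and 531 in mesalazine mice, 836 and 913 in DSS model mice, and 565 and 1967 in controls. Control replicate 2 was above all other libraries and control replicate 1 was below 6 of the other 7. The log2 change for the DSS model against control was -0.53 (SE 0.53, 95% interval -1.72 to 0.65, adjusted p = 0.631 by edgeR). It was -1.17 without control replicate 1 and 0.63 without control replicate 2, so its direction depended on which control animal was kept.

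Kuiyangling against the DSS model gave -0.11 for Car4 (95% interval -1.29 to 1.07), with both Kuiyangling libraries just below both DSS model libraries in CPM. In FPKM the groups overlapped, at 512 and 535 FPKM in Kuiyangling mice and 484 and 546 FPKM in DSS model mice. Mesalazine against the DSS model gave -0.12 (95% interval -1.30 to 1.06), with mesalazine replicates on either side of the model. Both intervals reach past a 2-fold change on either side.

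Car12, the membrane-spanning isoform with an outward catalytic domain, stood at 151 and 159 CPM in Kuiyangling mice, 81.1 and 185 in mesalazine mice, 161 and 109 in DSS model mice, and 119 and 67.9 in controls. Kuiyangling libraries lay close together and above both controls, while the mesalazine pair spanned most of the range of the gene. The log2 change was 0.53 for the DSS model against control (SE 0.42, adjusted p = 0.535 by edgeR) and 0.73 for Kuiyangling against control (SE 0.42, adjusted p = 0.647 by edgeR). These were 0.18 and 0.38 without control replicate 2, and 0.99 and 1.18 without control replicate 1. For Kuiyangling against the DSS model it was 0.20 (95% interval -0.73 to 1.13), and for mesalazine against the DSS model -0.02 (95% interval -0.94 to 0.91).

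Promoter windows were looked up for all 7 members, and those found, of Car4 and Car12, are shown. The windows run from 250 bases before to 50 bases after the annotated start (RefSeq, GRCm38.p6), and 2 of the 7 genes matched an entry. Car4 lies at chr11:84957504-84957803 and Car12 at chr9:66713436-66713735, both on the plus strand, written 5′ to 3′ with motif matches in capitals.
Car4: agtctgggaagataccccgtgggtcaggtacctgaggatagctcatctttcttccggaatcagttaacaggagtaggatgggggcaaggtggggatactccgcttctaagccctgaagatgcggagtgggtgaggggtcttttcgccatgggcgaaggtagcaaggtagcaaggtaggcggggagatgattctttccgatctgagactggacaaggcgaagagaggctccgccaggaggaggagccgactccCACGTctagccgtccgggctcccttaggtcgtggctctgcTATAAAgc
Car12: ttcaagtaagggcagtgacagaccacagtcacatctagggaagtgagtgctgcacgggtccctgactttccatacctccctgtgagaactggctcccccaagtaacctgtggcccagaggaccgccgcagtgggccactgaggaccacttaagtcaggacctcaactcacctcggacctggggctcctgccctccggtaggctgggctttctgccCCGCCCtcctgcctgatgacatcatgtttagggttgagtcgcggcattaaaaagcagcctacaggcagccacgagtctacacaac

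Both strands were searched for 4 motifs, counting the start as position 1. The motif of the TATA box was spelled TATAAA, and that of the GC box, which Sp proteins bind, was spelled GGGCGG. The core of the hypoxia response element was spelled ACGTG, and the core of sites for the intestinal Cdx factors was spelled TTTAT. In Car4 the capitals mark CACGT, the reverse complement of ACGTG, beginning at position 3. They also mark TATAAA beginning at position 43, which holds the reverse complement of TTTAT from position 44. In Car12 they mark CCGCCC, the reverse complement of GGGCGG, beginning at position -35. Among all 32851 windows of this length, 13.6% held the TATA box letters, 35.7% those of the GC box, 19.6% the hypoxia core and 40.0% the Cdx core. A match describes these letters only, and no binding was measured in these mice.

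Car8, the member without catalytic activity, is known in neurons as a partner of the inositol trisphosphate receptor that releases calcium. Its level was 116 and 80.1 CPM in Kuiyangling mice, 136 and 97.8 in mesalazine mice, 70.3 and 78.0 in DSS model mice, and 98.0 and 34.2 in controls. Both treated groups were above the DSS model without overlap, and control replicate 2 was the lowest library. The log2 change was 0.66 for mesalazine against the DSS model (SE 0.44, 95% interval -0.32 to 1.64, adjusted p = 0.983 by edgeR), and 0.39 without mesalazine replicate 1. For Kuiyangling against the DSS model it was 0.40 (SE 0.44, 95% interval -0.58 to 1.38, adjusted p = 0.996 by edgeR), and 0.081 without Kuiyangling replicate 1.

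For the DSS model against control the Car8 estimate was 0.17 (SE 0.44), and it was 1.11 without control replicate 1 and -0.40 without control replicate 2. The deposited annotation gives carbonate dehydratase activity to all 7 genes and to 16 genes in the table, Car8 among them.

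**Figure D2:**
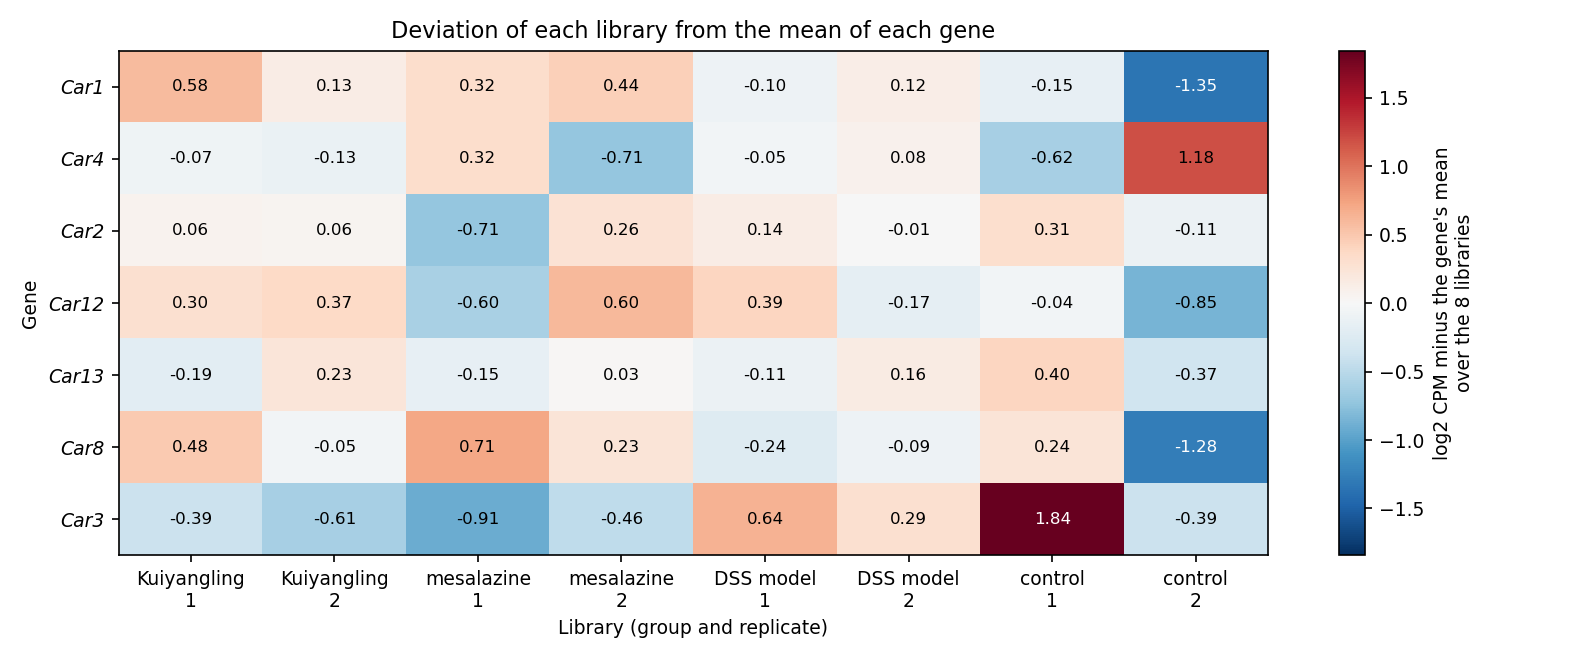
Deviation of each library from the mean of each gene over the 8 libraries (log2 CPM with a prior count of 2), one row a gene and one column a library, with red above and blue below the mean. Control replicate 2 is lowest in Car1 (-1.35), Car8 (-1.28) and Car12 (-0.85) and highest in Car4 (1.18), and control replicate 1 is highest in Car3 (1.84).

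Set against all genes, the members showed no excess of calls. In DSS model mice against controls, 0 of 7 members were called where 0.247% of genes tested were, 0 of 7 had an unadjusted p under 0.05 where 14.8% did, and 1 of 7 (Car1) did not overlap in CPM where 53.4% did not. The median log2 change of the 7 was -0.04, and that of all genes tested was -0.04. In the mean of the 3 DSS groups against control, 0 of 7 were called against 2.19% of all genes. There 2 of 7 (Car1 and Car3) had an unadjusted p under 0.05 against 20.6%, and 1 of 7 did not overlap in CPM against 25.5%. In FPKM, 0 of 7 were without overlap in either comparison, against 53.8% of genes in the DSS model comparison and 25.4% in the mean of the 3 DSS groups.

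In Kuiyangling mice against the DSS model, 0 of 7 members and 0% of genes were called, and 0 of 7 members had an unadjusted p under 0.05 against 3.56% of genes. Of the 7, 4 did not overlap, Car1 and Car8 on the higher side and Car3 and Car4 on the lower, where 43% of genes did not overlap. In FPKM, Car1, Car2, Car3, Car8 and Car12 did not overlap and Car4 did, 5 of 7 against 44.5% of genes. In mesalazine mice against the DSS model, 0 of 7 members and 0% of genes were called, and 0 of 7 had an unadjusted p under 0.05 against 5.49%. There 3 of 7 did not overlap, Car1 and Car8 higher and Car3 lower, against 27.7% of genes; in FPKM these were 2 of 7, Car8 and Car3, against 26.7%. Between Kuiyangling and mesalazine, 0 of 7 members and 0% of genes were called, none of the 7 had an unadjusted p under 0.05 (1.9% of genes), and none was free of overlap (22.1% of genes).

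Against controls, Kuiyangling mice had 0 of 7 members called (0.239% of genes), 1 with an unadjusted p under 0.05 (Car3; 10.3% of genes) and 2 without overlap (Car1 and Car12, both higher; 49.1% of genes). Mesalazine mice against controls had 0 of 7 called (0.673% of genes), 2 with an unadjusted p under 0.05 (Car1 and Car3; 20% of genes) and 2 without overlap (Car1 higher and Car3 lower; 45.7% of genes). Car1 was at 0.999 (SE 0.45) for Kuiyangling and 1.01 (SE 0.45) for mesalazine against the same 2 controls, on the log2 scale. Without control replicate 2 these were 0.52 and 0.53, and without control replicate 1 both were 1.72. Car3 was at -1.76 (SE 0.73) for Kuiyangling and -1.95 (SE 0.75) for mesalazine against control, and at -0.13 and -0.32 without control replicate 1.

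**Figure D3:**
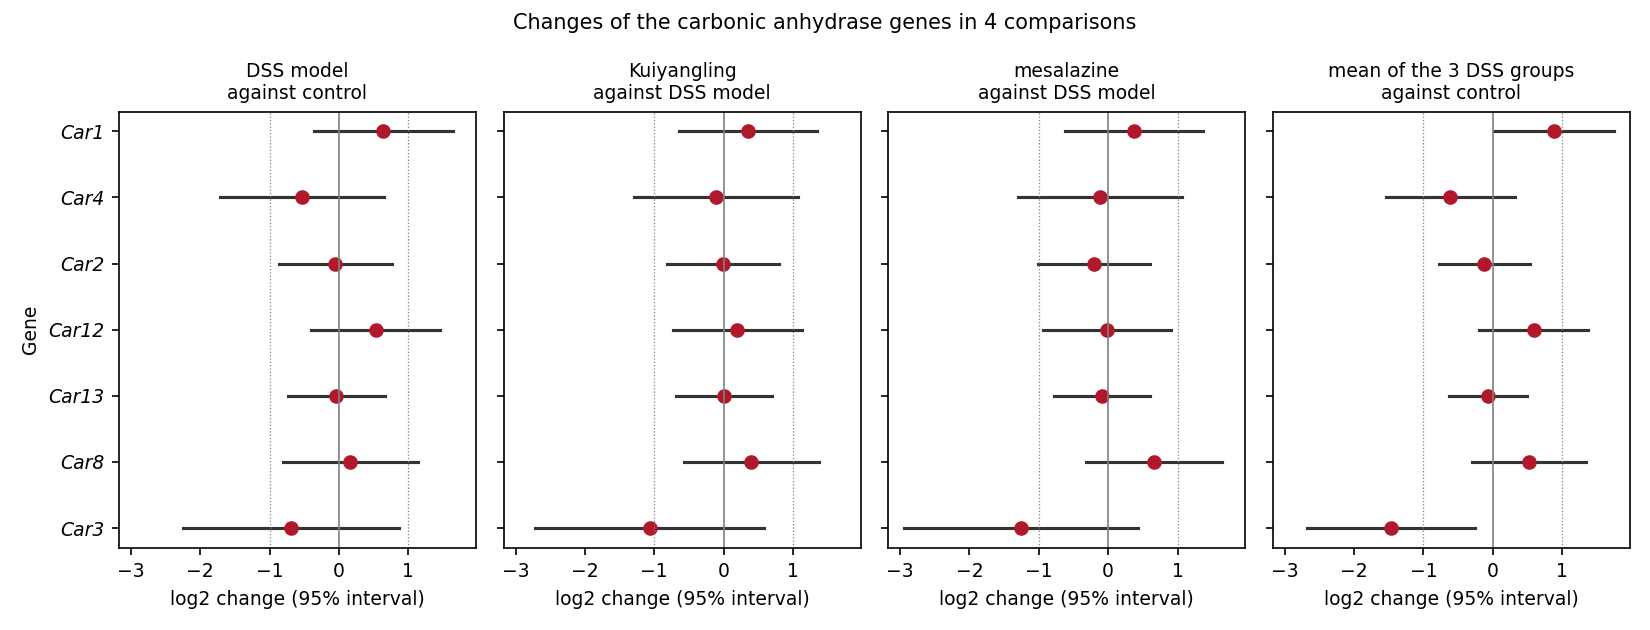
Log2 change of each carbonic anhydrase gene with its 95% interval in 4 comparisons (edgeR); dotted lines mark a 2-fold change. Only Car1 (0.88) and Car3 (-1.47) in the mean of the 3 DSS groups against control have an interval that leaves out 0 among those plotted, and neither was called.

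The 2 controls stood further apart in 5 of the members than in most genes. The ratio of the higher to the lower control was 3.48 for Car4, 2.87 for Car8, 2.31 for Car1, 1.75 for Car12 and 1.71 for Car13, against a median of 1.25 over 10202 genes with at least 5 CPM. These ratios exceeded those of 87.8 to 98.6% of the 10202 genes. Car2, with a ratio of 1.34, exceeded 63.5% of them, and Car3, with a ratio of 5.22, had too few counts to be among them. Of the 7 members, 3 were above 0 for the DSS model against control with all libraries, 6 without control replicate 1 and 3 without control replicate 2.

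**Figure D4:**
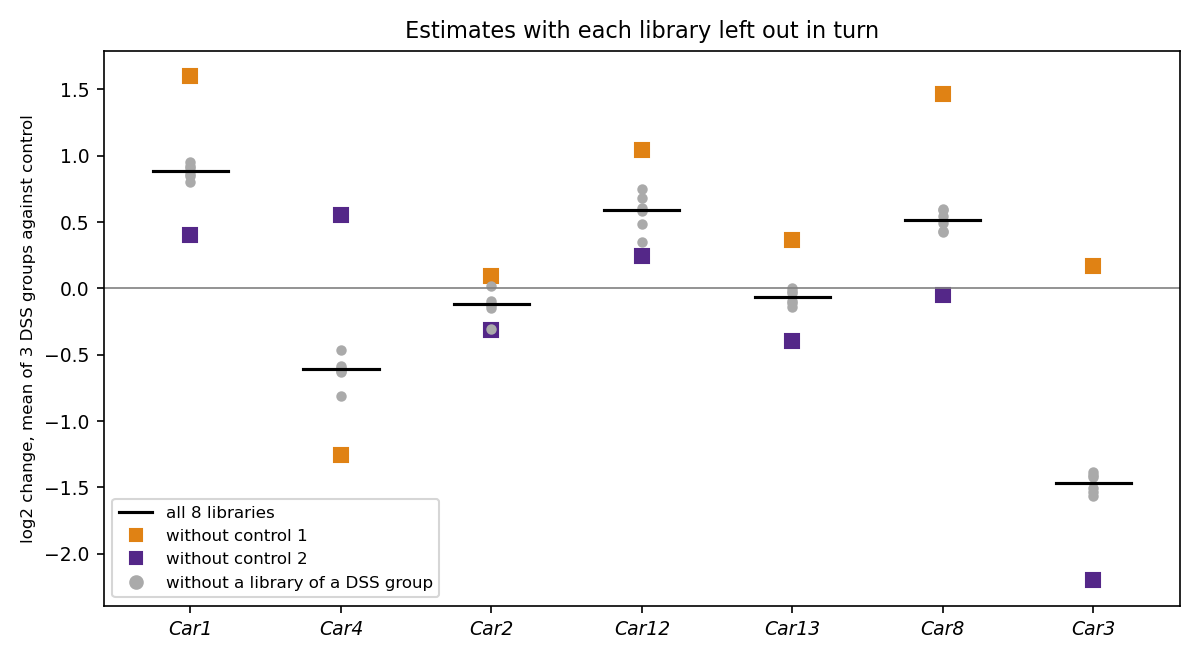
Log2 change of each gene in the mean of the 3 DSS groups against control, with all 8 libraries (bar) and with each library left out in turn (squares for the controls, grey circles for the others). Leaving out control replicate 1 moves Car8 to 1.46 and Car3 to 0.17, and leaving out control replicate 2 moves Car4 to 0.55.

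Across the 8 libraries, Car1 and Car8 ran together and Car4 ran against both Car1 and Car12. Pearson's r of log2 CPM was 0.91 for Car1 with Car8, -0.72 for Car1 with Car4 and -0.80 for Car4 with Car12, as a description over libraries that share groups and scaling. Without control replicate 2 these were 0.61, 0.10 and -0.60, so the opposition of Car1 and Car4 rested on that animal. In FPKM, Car1 stood 1.92-fold above Car4 in control replicate 2 and at least 10.8-fold above it in the other 7 libraries.

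The genes whose log2 CPM followed each member most closely over the 8 libraries are given by name and r alone. They were picked by r from 10058 candidate genes, or 10059 for Car3, so their r is high by selection. Car1 was followed by Cyp2c65 (r = 0.97), a cytochrome P450, Ugt2b5 (r = 0.97), a glucuronosyltransferase, and Wnt5a (r = 0.97), a secreted signal. Car8 was followed by Nts (r = 0.96), the gut peptide neurotensin, Hoxb7 (r = 0.96) and Fzd3 (r = 0.96). Car4 was followed by Gzmb (r = 0.96), a granule protease of cytotoxic lymphocytes, and Traf7 (r = 0.94). Leaving out control replicate 2 lowered r to 0.86 for Cyp2c65, 0.80 for Ugt2b5, 0.80 for Wnt5a, 0.86 for Nts, 0.89 for Hoxb7, 0.84 for Fzd3, 0.88 for Gzmb and 0.92 for Traf7.

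Car2 was followed by Pcyt1a (r = 0.99), an enzyme of phosphatidylcholine synthesis, Slc25a24 (r = 0.98), a mitochondrial carrier, and Ric8b (r = 0.98). Without mesalazine replicate 1 these were 0.92, 0.93 and 0.90. Car12 was followed by Sec63 (r = 0.99), part of the protein import machinery of the endoplasmic reticulum, Epb41l3 (r = 0.99) and B4galnt2 (r = 0.98), a glycosyltransferase of the gut epithelium. Car13 was followed by Mastl (r = 0.97), a mitotic kinase, Ippk (r = 0.96) and Slc25a32 (r = 0.95). Car3 was followed by Tmem263 (r = 0.95), Galntl6 (r = 0.90) and Sytl4 (r = 0.89), which were 0.87, 0.70 and 0.65 without control replicate 1.

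Of 9 further carbonic anhydrase genes, Car9, Car14 and Car15 had enough counts for the test, and Car5a, Car5b, Car6, Car7, Car10 and Car11 had 2 to 59 counts over all 8 libraries. Car9, a membrane isoform that low oxygen induces, was above Car12 in FPKM in 8 of 8 libraries. Its level was 116 and 103 CPM in Kuiyangling mice, 103 and 85.7 in mesalazine mice, 130 and 119 in DSS model mice, and 81.8 and 74.8 in controls. In CPM all 6 DSS libraries were above both controls, while in FPKM both mesalazine libraries, at 38.9 and 40.6 FPKM, were below control replicate 1 at 42.0 FPKM. The log2 change was 0.66 for the DSS model against control (SE 0.25, unadjusted p = 0.0240, adjusted p = 0.279 by edgeR). Leaving out each library in turn kept it between 0.60 and 0.73, a narrower span than for Car1 or Car4.

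Car15, a lipid-anchored isoform, ran the other way. It was at 1.18 and 1.19 CPM in Kuiyangling mice, 1.63 and 1.81 in mesalazine mice, 2.01 and 2.06 in DSS model mice, and 2.33 and 4.19 in controls. The 4 groups did not overlap, but the share of all genes with 4 separate groups was not computed. Between single pairs of groups, 22.1 to 53.4% of genes tested did not overlap. Car15 rested on 19 to 68 counts per library, and its exact Poisson intervals overlapped between groups. In CPM they were 0.757 to 1.79 in Kuiyangling replicate 2 and 1.03 to 2.44 in mesalazine replicate 1. For the mean of the 3 DSS groups against control the log2 change was -1.01 (SE 0.37). Its unadjusted p was 0.0205 and its adjusted p 0.173 by edgeR, and the change was -0.53 without control replicate 2. Car14, at 0.545 to 1.42 CPM over the 8 libraries, gave 0.92 for the DSS model against control (SE 0.58, adjusted p = 0.441 by edgeR).

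The exchangers, pumps and channels that work beside carbonic anhydrases were mostly below 0 in DSS model mice. Of 18 partner transport genes tested, 1 was above 0 (Bsg, the chaperone of monocarboxylate transporters, 0.73) and none was called for the DSS model against control. Their median log2 change was -0.56, against -0.04 over all genes, and 4 were above 0 without control replicate 2 and 2 without control replicate 1. For Kuiyangling against the DSS model 15 of 18 were above 0 with a median of 0.47, and for mesalazine 12 of 18 with a median of 0.14, none called; both share the DSS model libraries with the comparison before.

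Atp12a, the colonic proton and potassium pump, was the only partner gene called in the reported fit, in the mean of the 3 DSS groups against control. Without the low-count filter its adjusted p by edgeR was 0.00049 for the DSS model, 0.0136 for Kuiyangling and 1.19e-05 for mesalazine, each against control. Those 3 log2 changes were -5.57, -3.65 and -7.97 in the reported fit, and -1.17, 0.74 and -3.59 without control replicate 2. It was at 9.04 and 63.1 CPM in Kuiyangling mice, 0.283 and 3.21 in mesalazine mice, 9.18 and 9.95 in DSS model mice, and 21.6 and 885 in controls. Its log2 change of -5.73 (adjusted p = 0.0236 by edgeR) became -1.34 without control replicate 2. It was no longer called then, nor without DSS model replicate 1, DSS model replicate 2, mesalazine replicate 1 or Kuiyangling replicate 1. Aqp8, the water channel of the colonic surface, was at 381 and 490 CPM in Kuiyangling mice, 83.4 and 399 in mesalazine mice, 249 and 314 in DSS model mice, and 691 and 1975 in controls.

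Aqp8 was below both controls in all 6 DSS libraries, with a log2 change of -2.47 for mesalazine against control (SE 0.69, adjusted p = 0.107 by edgeR) and -1.61 for Kuiyangling against control (SE 0.67, adjusted p = 0.442 by edgeR). Without control replicate 2 these were -1.52 and -0.67. By DESeq2 the adjusted p of Aqp8 was 0.00083 for mesalazine against control. For Kuiyangling against control its smallest adjusted p was 0.0716, by edgeR without the low-count filter. Slc26a2, a sulfate and anion transporter, was at 97.2 and 82.1 CPM in DSS model mice against 255 and 331 CPM in controls, a log2 change of -1.71 (SE 0.50, adjusted p = 0.186 by edgeR). Slc26a3, the chloride and bicarbonate exchanger of the colonic surface, gave -1.19 in that comparison (SE 0.53, adjusted p = 0.333 by edgeR), and -0.57 without control replicate 2. Neither was called in the reported fit, but both intervals left out 0. They were -2.83 to -0.59 for Slc26a2 and -2.38 to -0.0080 for Slc26a3. Leaving out each library in turn kept Slc26a2 between -1.89 and -1.51. Slc26a2 was called in 2 of the 12 alternatives, with an adjusted p of 0.0153 by edgeR without the low-count filter. Slc26a3 was called in none. In the same comparison Car1 and Car4 gave 0.64 and -0.53.

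Slc4a4, the sodium bicarbonate cotransporter of the basal membrane, was at 67.0 and 77.2 CPM in Kuiyangling mice against 47.4 and 52.4 CPM in DSS model mice, a log2 change of 0.53 (SE 0.33, adjusted p = 0.996 by edgeR). Slc26a6, another anion exchanger, gave 1.58 for mesalazine against the DSS model (SE 0.66, adjusted p = 0.831 by edgeR), with 2.19 and 7.24 CPM in mesalazine mice against 1.57 and 1.59 CPM in DSS model mice. Pdzk1, a scaffold of apical exchangers, rested on few counts, 3 and 47 in mesalazine mice against 5 and 1 in DSS model mice. Mesalazine replicate 2 was the high library for both, and without it the Slc26a6 estimate was 0.47.

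Hypoxia response genes are given because Car9 belongs to that response. Of 13 tested, 12 were above 0 for the DSS model against control, with a median log2 change of 0.37 and none called. The member below 0 was Vegfa, a growth factor, at -1.13 (SE 0.47, unadjusted p = 0.0371, adjusted p = 0.311 by edgeR). Vegfa stood at 42.9 and 44.3 CPM in DSS model mice against 55.2 and 136 CPM in controls. The count above 0 was 9 without control replicate 1 and 12 without control replicate 2. Egln3, a prolyl hydroxylase of the response, stood at 92.0 and 93.8 CPM in DSS model mice against 28.3 and 53.8 CPM in controls, a log2 change of 1.18 (SE 0.38, adjusted p = 0.221 by edgeR). Bnip3, a mitochondrial protein, gave 0.97 (SE 0.33, adjusted p = 0.248 by edgeR). Neither was called, and without control replicate 1 these were 0.78 and 0.57. Against control, Bnip3 gave 1.44 for Kuiyangling (adjusted p = 0.124 by edgeR) and 1.02 for mesalazine (adjusted p = 0.145 by edgeR). The mean of the 3 DSS groups gave 1.14 (adjusted p = 0.0728 by edgeR), or 0.74 without control replicate 1. By DESeq2 the adjusted p was 0.00970 for Kuiyangling and 0.00797 for the mean of the 3 DSS groups. For mesalazine the smallest was 0.0633, by edgeR without the low-count filter.

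Ankrd37 of the same list was at 52.7 and 34.4 CPM in Kuiyangling mice, 45.3 and 45.2 in mesalazine mice, and 24.2 and 17.4 in DSS model mice. It averaged 17.2 CPM in controls. Against control its log2 change was 1.34 for Kuiyangling (adjusted p = 0.101 by edgeR) and 1.40 for mesalazine (adjusted p = 0.0757 by edgeR). For the mean of the 3 DSS groups it was 1.01 (adjusted p = 0.0728 by edgeR). None of these was called in the reported fit. By DESeq2 their adjusted p was 0.00851, 0.0030 and 0.0125. Both treatments were above the model without overlap, at log2 changes of 1.06 (SE 0.29, adjusted p = 0.996 by edgeR) for Kuiyangling, or 0.70 without Kuiyangling replicate 1, and 1.12 (SE 0.29, adjusted p = 0.523 by edgeR) for mesalazine. Hk2, a glycolytic kinase, ran the other way, at -0.58 (SE 0.39) for Kuiyangling and -1.39 (SE 0.39) for mesalazine against the model, and neither passed the adjusted threshold. Vegfa, the endothelial growth factor of the response, was at 76.3 and 53.2 CPM in Kuiyangling mice against 22.6 and 51.0 CPM in mesalazine mice, a log2 change of 0.81 (SE 0.47, adjusted p = 0.999 by edgeR), which was 0.34 without mesalazine replicate 1.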

How the data were processed

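The authors deposited whole-number counts per gene and FPKM for 8 libraries; Trimmomatic and HISAT2 are named in the submitters' processing notes without version. The role of each tool, the read counter, genome build, annotation and strand setting are not given in the sources used here. The deposited FPKM equal the counts per implied gene length and per library total, checked on 100% of values with at least 20 counts within a relative deviation of 0.001. Per the labels' protocols, the mirVana kit was used for extraction and the TruSeq Stranded mRNA kit for library preparation.

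Of the 17353 genes, 13381 passed filterByExpr by group. The 8 libraries entered 1 model with a term for each group, fitted in edgeR 4.0.16 (R 4.3.3) after TMM scaling, and contrasts were tested with the quasi-likelihood F test. The fit had a common BCV (biological coefficient of variation) of 0.287, with 6.02 prior degrees of freedom. SE is the estimate divided by the square root of F, and 95% intervals use the fit's degrees of freedom. The 7 comparisons were the 6 pairs of groups and the mean of the 3 DSS groups against control. They share libraries. Alternatives were RLE scaling, no low-count filter, DESeq2 1.42.0, the replicate number as a block and leaving out each library. Methods were tested on simulated counts.

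All 7 members are named. From each related list (partner transport, other carbonic anhydrases, hypoxia response), the rule was up to 3 called members, otherwise the 2 with the smallest p, per comparison. Slc26a3 and Bsg, and Vegfa for the DSS model against control, were added after their values were seen. The 3 most alike genes by Pearson's r had at least 5 CPM, and 1 of those for Car4 is not reported here. The members and lists were chosen with earlier results of these data known. The counts of directions and of red cell markers called without a library, the overlap in FPKM and the alternatives for Slc26a3 and Bsg were added after the data were seen. Nothing showed whether animals shared a cage, day or batch.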

Additional observations from a re-analysis of the deposited data

How the results depend on the processing

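No carbonic anhydrase gene was called in any of the 12 alternatives to the 49 estimates. The number of all genes called moved with the processing: without the low-count filter it was 487 for the DSS model against control, 11 for Kuiyangling and 104 for mesalazine against the DSS model, 3 for Kuiyangling against mesalazine, 451 for Kuiyangling and 1090 for mesalazine against control, and 1169 for the mean of the 3 DSS groups against control. With DESeq2 these were 435, 13, 91, 0, 349, 982 and 965, against 33, 0, 0, 0, 32, 90 and 293 in the reported fit. With RLE scaling they were 33, 0, 0, 0, 33, 89 and 297. Leaving out each library in turn gave 1 to 159 for the DSS model, 1 to 171 for Kuiyangling, 1 to 2717 for mesalazine and 3 to 2249 for the mean of the 3 DSS groups, all against control, and 0 to 0 in the other 3 comparisons. The lowest counts in the comparisons with control came without control replicate 2, and the highest without control replicate 1 for Kuiyangling and without mesalazine replicate 2 for the others; a lone control is assumed to vary like the other groups. The cause was not tested.

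Replicate numbers are shared by the groups, but no label ties them. Deviations of same-numbered libraries correlated at -0.31 to 0.16. With so few animals in a group, differences between single animals weigh heavily on these correlations. They cannot decide whether same-numbered animals shared a cage, day or batch. The reported fit did not pair the samples. With the number as a block, the counts called were 50, 0, 0, 0, 65, 132 and 281 in the order above. The block turned Car4 in Kuiyangling against mesalazine to -0.026, and DESeq2 turned Car13 in Kuiyangling against the DSS model to -0.00094.

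Leaving out 1 library turned the sign of 31 of the 49 carbonic anhydrase estimates and, among the partner gene estimates given, of Pdzk1 and Atp12a, with these ranges on the log2 scale. For the DSS model against control they were -0.25 to 0.17 (Car2), -1.42 to 0.94 (Car3), -1.17 to 0.63 (Car4), -0.40 to 1.11 (Car8) and -0.37 to 0.40 (Car13). For Kuiyangling against the DSS model they were -0.079 to 0.068 (Car2), -0.058 to 0.51 (Car12) and -0.22 to 0.17 (Car13). For mesalazine against the DSS model they were -0.78 to 0.19 (Car2), -0.73 to 0.30 (Car4), -0.74 to 0.45 (Car12) and -0.22 to 0.049 (Car13). For Kuiyangling against mesalazine they were -0.28 to 0.20 (Car1), -0.21 to 0.77 (Car2), -0.046 to 0.49 (Car3), -0.42 to 0.60 (Car4), -0.26 to 0.94 (Car12), -0.13 to 0.26 (Car13) and -2.67 to 0.99 (Pdzk1). For Kuiyangling against control they were -0.25 to 0.16 (Car2), -1.29 to 0.52 (Car4), -0.00012 to 1.51 (Car8), -0.37 to 0.40 (Car13) and -5.64 to 0.74 (Atp12a). For mesalazine against control they were -0.83 to 0.15 (Car2), -1.31 to 0.51 (Car4), -0.21 to 0.99 (Car12) and -0.46 to 0.30 (Car13). For the mean of the 3 DSS groups against control they were -0.32 to 0.097 (Car2), -2.20 to 0.17 (Car3), -1.26 to 0.55 (Car4), -0.049 to 1.46 (Car8) and -0.40 to 0.37 (Car13). The call of Atp12a in that comparison ended in 5 of the 8 omissions. Of 28 mean FPKM levels, 3 moved by more than 1 SD under TMM scaling. Counting error is small for all members but Car3, which had 8 to 91 counts.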
